A study of Mus musculus with 8 samples.

Results

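The EphA receptors are cell surface tyrosine kinases, and all 9 family genes named for this account (Epha1 to Epha8 and Epha10) were found among the 39017 genes of the count table. They were chosen as a family by gene symbol and matched through Ensembl identifiers, though with earlier results of these data known. The table came from tdTomato-positive cells sorted from the cochlear nucleus, where the auditory nerve ends in the brainstem, of C57BL/6 mouse embryos at E18.5, shortly before birth. All 8 libraries carried Math1::Cre and the Rosa tdTomato reporter, so that recombination labels cells with a history of Math1 (Atoh1) expression, which in the hindbrain arise from the rhombic lip. The 4 wild type libraries carried nothing further, and the 4 mutant libraries also carried conditional alleles of the hindbrain patterning genes Hoxa2 and Hoxb2. Sample titles give these alleles as Hoxa2+/fl and Hoxb2fl/fl, whereas the design text gives both as homozygous, and the difference could not be settled here. Each library held 30000 sorted cells pooled from 3 littermates, and each came from a different mother. Mutant libraries are numbered 1 to 4 and wild type libraries 5 to 8, as in the table's headings.

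EphA receptors bind ephrin A ligands, which are tethered to the membrane of neighbouring cells by a lipid anchor, and contact can repel or attach a growing axon. EphA4 also binds ephrin B ligands. Signals run forward into the receptor-bearing cell through adaptors and exchange factors, and in reverse into the ligand-bearing cell. In the auditory brainstem, Eph receptors and ephrins take part in the topographic order of projections and in the choice of side made by axons of the cochlear nucleus. EphA10 is the family member that lacks kinase activity.

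Total counts ran from 24789043 to 51118195 per library, and the lowest counts of any member, those of Epha2, were 6 to 26. Hoxb2 fell in mutant libraries, from 40.1 ± 4.41 to 5.02 ± 1.49 CPM (SD, n = 4 each; adjusted p = 3.76e-05 by edgeR), and Hoxa2, at 43.2 ± 11.0 and 26.7 ± 15.7 CPM, did not pass. CPM here are counts relative to the library total after scaling by TMM, a correction for RNA composition. Markers of the labelled lineage were present, with Atoh1 at 28.5 to 154 CPM over the 8 libraries, Barhl1 at 352 to 540.5 CPM and the vesicular glutamate transporter Slc17a6 at 396 to 673 CPM. Granule and unipolar brush cell markers summed to 5810 to 8690 CPM, of which Zic1 alone held 2182 to 4222 CPM. Oligodendrocyte markers summed to 66.9 to 97.5 CPM and microglia markers to 10.4 to 17.4 CPM. Among the granule and unipolar brush cell markers, Etv1 was higher in mutant libraries, with an adjusted p of 0.0499 by edgeR. It passed in only 7 of 18 alternatives (adjusted p up to 0.17). The microglia marker C1qa fell from 2.36 ± 1.19 to 0.203 ± 0.104 CPM (SD, n = 4 each; adjusted p = 0.0115 by edgeR). It passed in 13 of 17 alternatives, with an adjusted p up to 0.0749. Its counts were low, at 30 to 142 in wild type and 4 to 18 in mutant libraries. The summed microglia markers overlapped between the groups, at 14.0 to 17.4 CPM in wild type and 10.4 to 16.3 CPM in mutant libraries. On the first principal component of log2 CPM (34.4% of the variance) mutant 1 stood at -21.99 with wild type 5 and 6 at -43.46 and -51.92, while the other libraries lay between -3.61 and 49.94.

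Compared per length of transcript, Epha3 and Epha8 made up most of the EphA message. Levels between genes are given as RPKM, the scaled CPM divided by the deposited gene length in kilobases. Epha3, the receptor best known for binding ephrin-A5, stood at 36.6 ± 7.78 RPKM in wild type and 32.7 ± 3.09 RPKM in mutant libraries (SD, n = 4 each). Epha8, known from the dorsal midbrain, stood at 24.3 ± 1.95 and 21.7 ± 5.18 RPKM. Of the summed EphA RPKM, Epha3 held 36.4% to 53.3% and Epha8 22.8% to 36.5% over the 8 libraries. Epha7 followed with 10.5% to 17.8%, and the other 6 genes together held the rest.

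Below Epha3 and Epha8 the levels dropped in steps. The mean over 8 libraries was 9.20 ± 1.92 RPKM for Epha7, 3.22 ± 1.44 RPKM for Epha4 and 1.91 ± 0.786 RPKM for Epha5 (SD, n = 8). Epha10 and Epha6 lay side by side at 1.08 ± 0.328 and 1.06 ± 0.343 RPKM. Epha1 was at 0.531 ± 0.147 RPKM and Epha2 at 0.110 ± 0.0521 RPKM. Each neighbour in this order was compared with the next by the ratio within each library, in an exact two-sided sign-flip permutation test over 8 libraries, with p adjusted over the 8 pairs. Of the 8 pairs, 7 differed, with adjusted p from 0.0125 to 0.0268. Epha10 exceeded Epha6 in 4 of 8 libraries (adjusted p = 0.859), and the order of those neighbours was not resolved.

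Parts of the order rest on the gene lengths. The deposited length of Epha3 is 5659 bases, 65.1% of its exons merged in GENCODE M21, whereas that of Epha8 is 4713 bases, 100% of them. With the GENCODE lengths, an alternative chosen after seeing the data, Epha8 stood at 22.97 and Epha3 at 22.56 RPKM, a difference that did not pass (exact permutation adjusted p = 0.859). That between Epha5 and Epha10, at 1.145 and 1.083 RPKM, did not pass either (exact permutation adjusted p = 0.859), so that 5 of 8 pairs of neighbours differed. The places of the genes below the top pair were otherwise the same. Epha4 and Epha5 have deposited lengths of 78.6% and 59.9% of their merged exons.

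**Figure D1:**
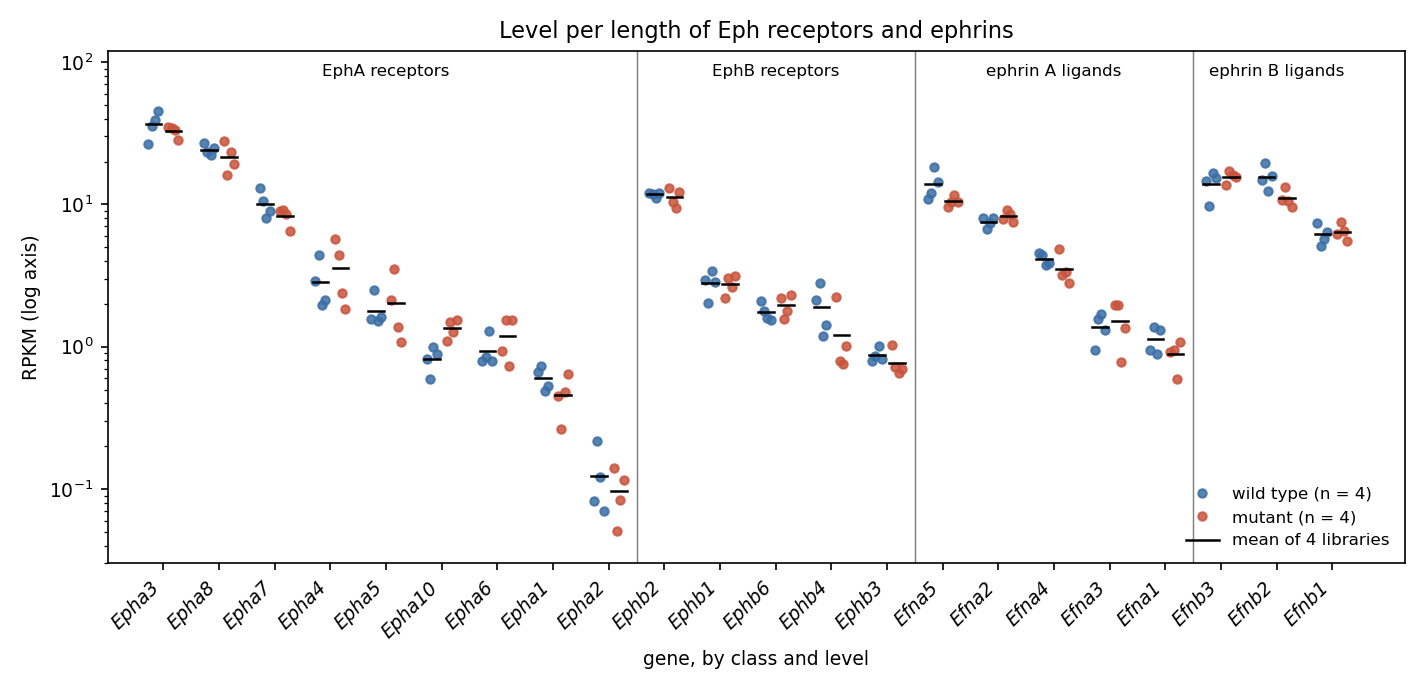
Level per length (RPKM, log axis) of the 9 EphA receptors, 5 EphB receptors, 5 ephrin A and 3 ephrin B genes, one point per library with blue wild type (n = 4) and red mutant (n = 4), and black bars for group means. EphA levels span from 45.3 RPKM for Epha3 in wild type 8 down to 0.0506 RPKM for Epha2 in mutant 2.

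The bases before the start sites are shown for the pair of genes with the highest levels and for Epha1, the gene with the lowest level whose window could be matched to the start of a GENCODE transcript. They are the 250 bases before the RefSeq start on GRCm38.p6, 5′ to 3′ on the gene's strand, with CG pairs in capitals. Epha3 is on the minus strand at chr16:63864176-63864425, Epha8 on the minus strand at chr4:136956817-136957066 and Epha1 on the minus strand at chr6:42373269-42373518.
Epha3: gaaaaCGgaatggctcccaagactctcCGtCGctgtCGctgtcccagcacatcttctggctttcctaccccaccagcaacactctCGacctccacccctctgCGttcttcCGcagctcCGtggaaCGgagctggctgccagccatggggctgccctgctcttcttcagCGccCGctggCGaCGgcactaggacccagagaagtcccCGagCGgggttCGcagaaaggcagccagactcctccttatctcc
Epha8: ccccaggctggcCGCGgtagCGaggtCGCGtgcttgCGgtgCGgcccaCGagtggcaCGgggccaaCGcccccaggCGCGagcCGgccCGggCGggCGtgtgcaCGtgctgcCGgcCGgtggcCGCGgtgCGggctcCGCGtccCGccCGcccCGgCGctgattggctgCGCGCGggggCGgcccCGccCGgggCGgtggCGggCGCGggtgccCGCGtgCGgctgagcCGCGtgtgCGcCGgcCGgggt
Epha1: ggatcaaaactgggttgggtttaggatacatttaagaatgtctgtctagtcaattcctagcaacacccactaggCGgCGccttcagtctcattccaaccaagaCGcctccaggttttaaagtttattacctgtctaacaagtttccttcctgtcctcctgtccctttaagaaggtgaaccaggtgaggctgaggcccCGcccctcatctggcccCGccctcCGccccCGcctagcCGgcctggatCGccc
The Epha8 window held 46 CG pairs and was 84.0% G or C, higher than 99.7% of the 32851 windows of this length. That of Epha3, with 16 CG pairs and 62.8% G or C, and that of Epha1, with 9 pairs and 54.4%, were nearer to the median window, at 6 pairs and 52.4%. All 9 genes had a window, and Epha7 had another, giving 10 in all. None of the 10 held the letters TGATNNAT, bound by Hox and Pbx proteins together, or TGACAG, bound by Meis proteins, on either strand. Those letters occur in 7.68% and 15.9% of all windows, and no match says only that these letters are not in these bases. CAGCTG, an E-box of the kind Atoh1 binds, was in the windows of Epha10 and Epha6, and in 13.0% of all windows. All 250 bases of the Epha10 window lie within exons of Epha10 in GENCODE, so for that gene they precede a RefSeq start but not the gene's first base.

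No EphA receptor passed the test between mutant and wild type libraries. All 9 genes passed the filter on low counts, 0 of 9 had an edgeR adjusted p below 0.05, and 0.359% of all 19494 tested genes did (0.144% higher in mutant libraries and 0.215% lower). At an unadjusted p below 0.05 there was 1 EphA gene, Epha10, where 12.5% of all tested genes reached that level. DESeq2 called 1 of the 9, again Epha10, against 2.77% of the genes to which it gave an adjusted p (1.73% called higher), and limma-voom called 0, against 0.354%. Fitted log2 fold changes were positive for 4 members and negative for 5, from -0.37 to 0.71. Their median was -0.16, where the median of all tested genes was -0.01. Groups did not overlap for 1 member, Epha10, as for 6.17% of tested genes (3.23% with the mutant higher). In sorted cells pooled before sequencing, fewer cells of a type and less RNA per cell cannot be told apart.

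**Figure D2:**
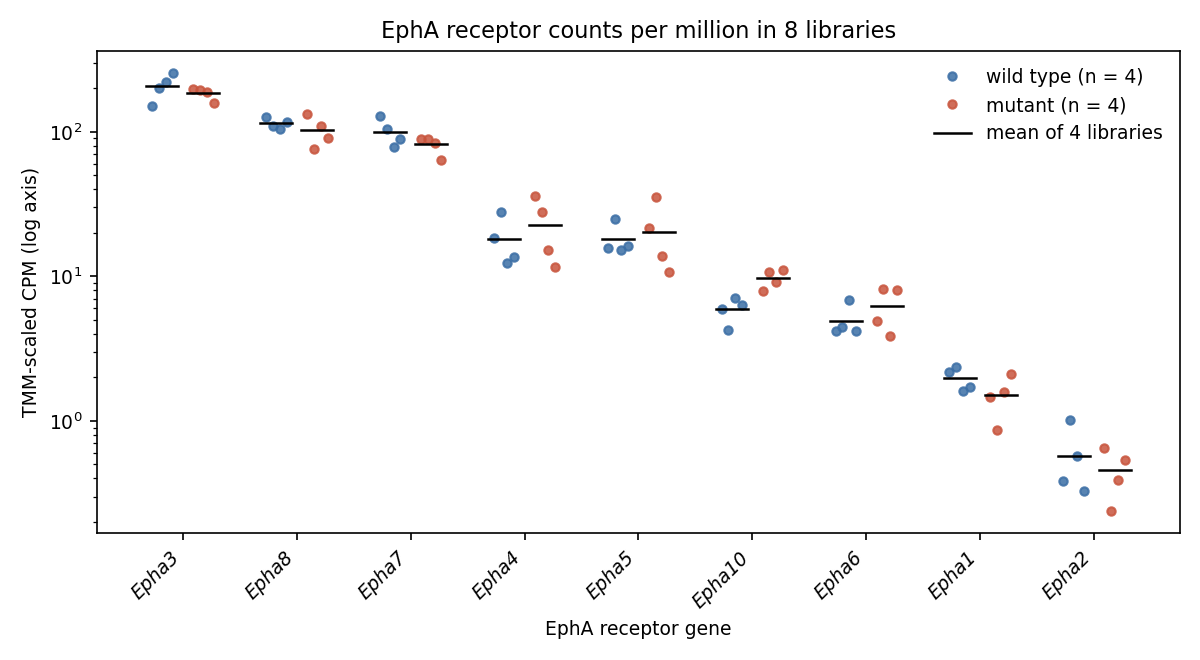
TMM-scaled CPM (log axis) of the 9 EphA receptors, ordered by mean, one point per library, with blue wild type (n = 4), red mutant (n = 4) and black bars for group means. Epha10 is the 1 gene whose groups do not overlap, with wild type at 4.28 to 7.12 CPM and mutant at 7.89 to 11.0 CPM.

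Epha10 (ENSMUSG00000028876, chromosome 4, 124880899 to 124917800, plus strand, mm10) had the largest fitted difference of the family. It read 5.91, 4.28, 7.12 and 6.35 CPM across wild types 5 to 8 and 7.89, 10.7, 9.13 and 11.0 CPM across mutants 1 to 4. Every mutant library lay above every wild type library, and the gap between the groups, from wild type 7 to mutant 1, was smaller than the spread within either. The mean was 5.92 ± 1.199 CPM among wild type and 9.69 ± 1.46 CPM among mutant libraries (SD, n = 4 each). The log2 fold change was 0.71 (SE 0.191, approximate 95% interval 0.29 to 1.12, not adjusted for the number of genes; adjusted p = 0.162 by edgeR), and it did not pass. Of all tested genes, 3.68% had a larger positive value.

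The Epha10 difference was positive in all 18 alternatives, from 0.58 to 0.81 on the log2 scale, and its adjusted p ran from 0.0181 to 0.436. It passed with DESeq2 (0.71, adjusted p = 0.0181) and in none of the other 17. As a share of the summed EphA RPKM, Epha10 made up 0.756% to 1.31% in wild type and 1.33% to 2.53% in mutant libraries. The noncoding gene 1700125G02Rik lies on the opposite strand and shares 79 exon bases with Epha10. Its counts were 12 to 43, or 4.98% to 11.6% of those of Epha10, and no source states that the counting kept the strand.

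Inhibitory neuron markers, taken as a sum, followed Epha10 in only part of the libraries. Of 6 such markers, 5 had a higher mean in mutant libraries, and the 5 that were tested had positive log2 fold changes from 0.62 to 1.14. None of the 5 passed by edgeR, against 0.359% of all tested genes. The summed level of the 6 was 34.2, 30.9, 48.0 and 58.1 CPM across wild types 5 to 8. Across mutants 1 to 4 it was 44.3, 102, 62.8 and 98.7 CPM. Mutant 2 and mutant 4 were highest for the summed markers and for Epha10 alike, and wild type 6 was lowest for both. Mutant 1, in contrast, had a lower sum than wild types 7 and 8, unlike its Epha10 level. Among the 5 tested markers, Slc6a5 was the 1 whose groups did not overlap, as for Epha10. It was at 8.80 to 21.6 CPM in wild type and 24.4 to 36.1 CPM in mutant libraries. Its log2 fold change was 0.78 (SE 0.256, adjusted p = 0.267 by edgeR). The mutant libraries ranked in the same order for Slc6a5 as for Epha10. Wild type 6 was lowest for both, but wild type 5 was the highest wild type for Slc6a5 and wild type 7 for Epha10. Gad1 (5.60 CPM), Gad2 (2.98 CPM) and Slc32a1 (0.565 CPM) were lowest in wild type 5, and Pax2 (2.36 CPM) in mutant 1. Of the defining markers, Gad1, which makes GABA, was at 11.3 ± 5.71 and 25.0 ± 13.0 CPM (SD, n = 4 each), the glycine transporter Slc6a5 at 17.5 ± 6.01 and 30.1 ± 5.96 CPM, and Ptf1a was under 1 CPM in every library. The part of these cells in the Epha10 values was not tested. The 9 markers of the Atoh1 lineage and of excitatory neurons, a sum in which Slc17a6 and Barhl1 weigh most, summed to 1426 to 1515 CPM among wild type and 1057 to 1268 CPM among mutant libraries. Of the 9, Nhlh1 fell (-0.95, adjusted p = 0.00603 by edgeR), where 0.215% of all tested genes were called lower. The other 8 did not pass, and 2 had positive log2 fold changes, up to 0.39.

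**Figure D3:**
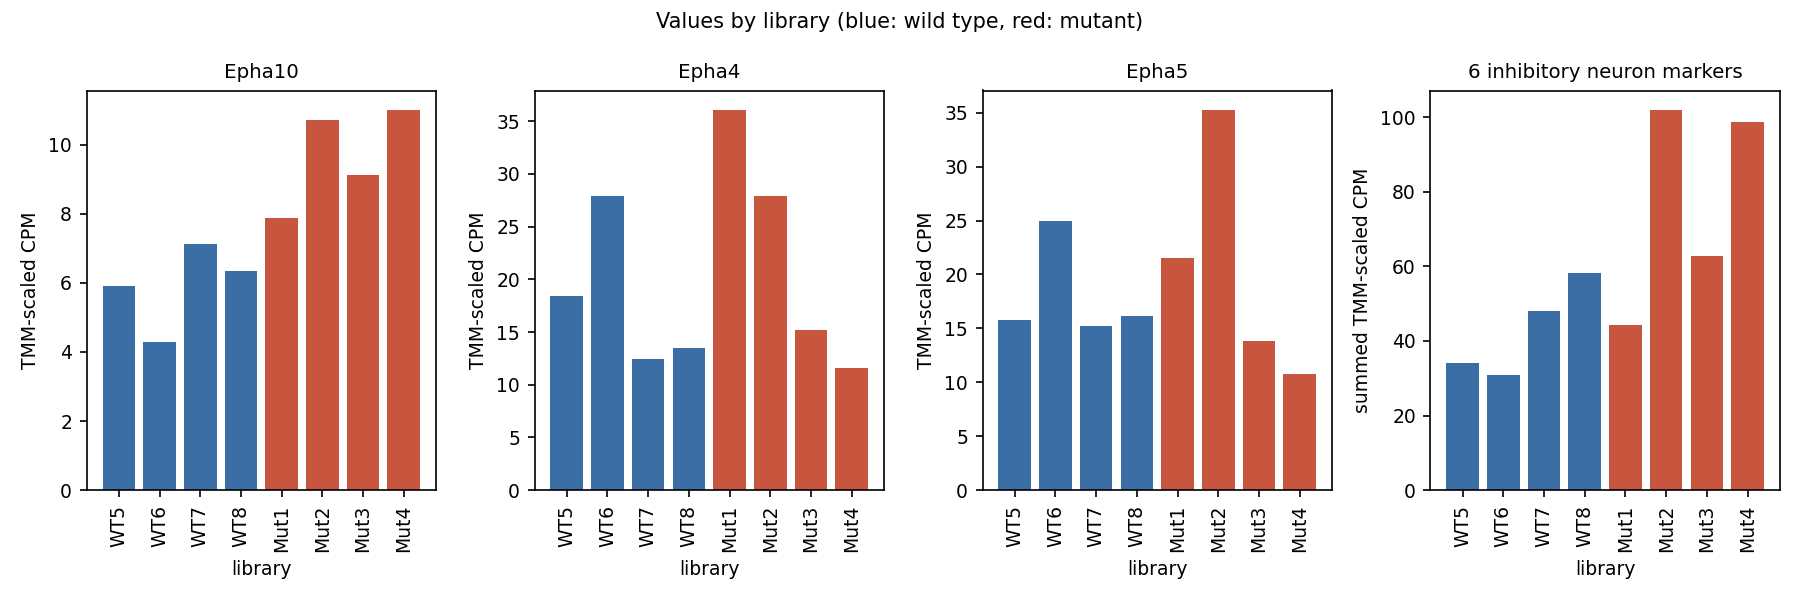
Bars give TMM-scaled CPM of Epha10, Epha4 and Epha5 and the summed CPM of 6 inhibitory neuron markers in each library, with wild type in blue and mutant in red, each axis starting at 0. Epha10 and the markers are both highest in mutant 2 and 4, while Epha4 and Epha5 are high in mutant 1, mutant 2 and wild type 6.

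By the root mean square difference of centred log2 CPM over the 8 libraries, the 3 named genes closest to Epha10 among 12911 with a mean of at least 1 CPM were Lrp8, Slc36a1 and Unc5c. Their differences were 0.0627, 0.0816 and 0.0925, against a median of 0.465 over all genes. Lrp8, a receptor for reelin, was at 143 CPM among wild type and 229 CPM among mutant libraries. Unc5c, a netrin receptor, was at 1053 and 1609 CPM, and the amino acid transporter Slc36a1 at 35.4 and 59.9 CPM. In that order, log2 fold changes were 0.68 (SE 0.152), 0.61 (SE 0.175) and 0.76 (SE 0.175), and none passed (edgeR adjusted p from 0.0978 to 0.196). Because these genes were picked for their likeness to Epha10 over the same 8 libraries, fold changes near its own follow from the choice. The distance of the closest genes from the median does so too. For Epha3 the closest were Aco1, Cfap300 and Pex19, with differences of 0.103, 0.115 and 0.118, against a median of 0.314.

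The 3 receptors with the highest levels had lower means in mutant libraries. Their intervals included no change and were narrower than those of the other EphA genes. They reached down to 0.7075 of the wild type level for Epha8 and to 0.641 of it for Epha7. Epha3 (ENSMUSG00000052504, chromosome 16, 63543534 to 63864175, minus strand) was at 151, 201, 221 and 256 CPM across wild types 5 to 8 and at 197, 194, 190 and 159 CPM across mutants 1 to 4. All 4 mutant libraries lay within the wild type range. Its log2 fold change was -0.16 (SE 0.149, 95% interval -0.49 to 0.16, adjusted p = 0.67 by edgeR). The interval reaches down to 0.713 of the wild type level and up to 1.12 times it. With 1 library left out the value ran from -0.29 (without wild type 5) to -0.04 (without wild type 8), and it was -0.39 with mutant 1 and wild types 5 and 6 all left out.

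Epha8 (ENSMUSG00000028661, chromosome 4, 136929419 to 136956816, minus strand) was at 126, 110, 105 and 117 CPM across wild types 5 to 8 and at 132, 76.1, 110 and 90.1 CPM across mutants 1 to 4. The wild type libraries were close together, with a coefficient of variation of 8.05%, and the mutant libraries spread to both sides of them, at 23.9%. Its fitted log2 fold change was -0.16 (SE 0.154, 95% interval -0.50 to 0.17, adjusted p = 0.681 by edgeR), and with 1 library left out it ran from -0.31 (without mutant 1) to -0.04 (without mutant 2).

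Epha7 (ENSMUSG00000028289, chromosome 4, 28813131 to 28967499, plus strand), a receptor of the forebrain and hindbrain that also has a short form without the kinase, was at 129, 104, 78.7 and 89.2 CPM across wild types 5 to 8. Across mutants 1 to 4 it was at 88.7, 89.7, 84.2 and 64.2 CPM. Wild type 5 and 6 stood above all mutant libraries, and wild type 7 and 8 among them. The log2 fold change was -0.29 (SE 0.159, 95% interval -0.64 to 0.05, adjusted p = 0.47 by edgeR). With the 3 libraries mutant 1 and wild types 5 and 6 left out it was -0.08 (adjusted p = 0.931 by edgeR), and with 1 library left out it ran from -0.39 (without wild type 7) to -0.16 (without wild type 5). The table does not separate the forms of the transcript.

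Epha4 and Epha5 varied more between libraries of one group than between the groups. Epha4 (ENSMUSG00000026235, chromosome 1, 77367185 to 77515088, minus strand), which marks rhombomeres of the early hindbrain and binds both classes of ephrin, was at 18.4, 27.9, 12.4 and 13.5 CPM across wild types 5 to 8. Across mutants 1 to 4 it was at 36.1, 27.9, 15.2 and 11.6 CPM. The 3 highest were mutant 1, mutant 2 and wild type 6, and the wild type range lay within the mutant range. Its fitted log2 fold change was 0.33 (SE 0.379, 95% interval -0.52 to 1.18, adjusted p = 0.74 by edgeR), an interval that runs from 0.697 of the wild type level to 2.27 times it. With 1 library left out it ran from 0.02 (without mutant 1) to 0.62 (without wild type 6).

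Epha5 (ENSMUSG00000029245, chromosome 5, 84054761 to 84417382, minus strand), a neuronal receptor for ephrin A ligands, was at 15.8, 25.0, 15.2 and 16.1 CPM across wild types 5 to 8 and at 21.5, 35.3, 13.8 and 10.7 CPM across mutants 1 to 4. Mutant 2, wild type 6 and mutant 1 were highest, the same 3 libraries in which Epha4 was highest. The log2 fold change was 0.17 (SE 0.342, 95% interval -0.59 to 0.94, adjusted p = 0.863 by edgeR), and with 1 library left out it ran from -0.23 (without mutant 2) to 0.38 (without mutant 4). Both genes were lowest in mutant 4.

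Markers of other cell types also differed between these libraries. None of the 5 astrocyte and radial glia markers passed by edgeR, against 0.359% of all tested genes, and none was at 0. These 5 summed to 276, 361, 313 and 270 CPM across wild types 5 to 8. Across mutants 1 to 4 they summed to 388, 312, 165 and 176 CPM. The sum was thus high in mutant 1 and wild type 6, where Epha4 was high, but it was as high in wild type 7, where Epha4 was low, as in mutant 2. The 5 endothelial markers summed to 6.66 to 20.0 CPM among wild type and 5.24 to 13.1 CPM among mutant libraries, with the highest sum in wild type 6 and the lowest in mutant 3. The 6 mesenchyme and pericyte markers summed to 6.10 to 18.2 and 5.43 to 12.1 CPM. In the last list 1 marker was at 0 in a library. The part of these cells in the Epha4 and Epha5 values was not tested.

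The 3 remaining receptors were sparse. Epha6 (ENSMUSG00000055540, chromosome 16, 59653483 to 60605531, minus strand), a receptor of the nervous system, was at 4.18 to 6.86 CPM among wild type and 3.87 to 8.15 CPM among mutant libraries, with mutant 2 and mutant 4 above and mutant 3 below every wild type library. Its log2 fold change was 0.34 (SE 0.272, adjusted p = 0.623 by edgeR), and the antisense gene Gm9017, with 2 to 23 counts, shares 107 of its exon bases. With 1 library left out the Epha6 value ran from 0.19 (without mutant 4) to 0.55 (without wild type 7). Epha1 (ENSMUSG00000029859, chromosome 6, 42358487 to 42373268, minus strand), a receptor known mainly from epithelia, was at 1.60 to 2.38 CPM among wild type and 0.867 to 2.11 CPM among mutant libraries, with a fitted log2 difference of -0.37 (SE 0.291, adjusted p = 0.614 by edgeR), which ran from -0.57 (without mutant 4) to -0.19 (without mutant 2). The gene shares 236 exon bases with Zyx on the opposite strand, whose counts of 616 to 1593 far exceed the 22 to 85 of Epha1, so the Epha1 level is uncertain.

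Epha2 (ENSMUSG00000006445, chromosome 4, 141301240 to 141329384, plus strand), another receptor best known from epithelia, was the rarest. Mutant 2 held 6 counts, 0.228 CPM of the unscaled total with an exact 95% binomial interval from 0.0837 to 0.497, and wild type 6 held 26 counts, 1.05 CPM with an interval from 0.685 to 1.54. Means were 0.575 ± 0.310 CPM among wild type and 0.455 ± 0.182 CPM among mutant libraries (SD, n = 4 each). Its log2 fold change of -0.30 (SE 0.471, adjusted p = 0.82 by edgeR) had an interval from -1.33 to 0.73, or 0.399 to 1.655 times the wild type level.

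**Figure D4:**
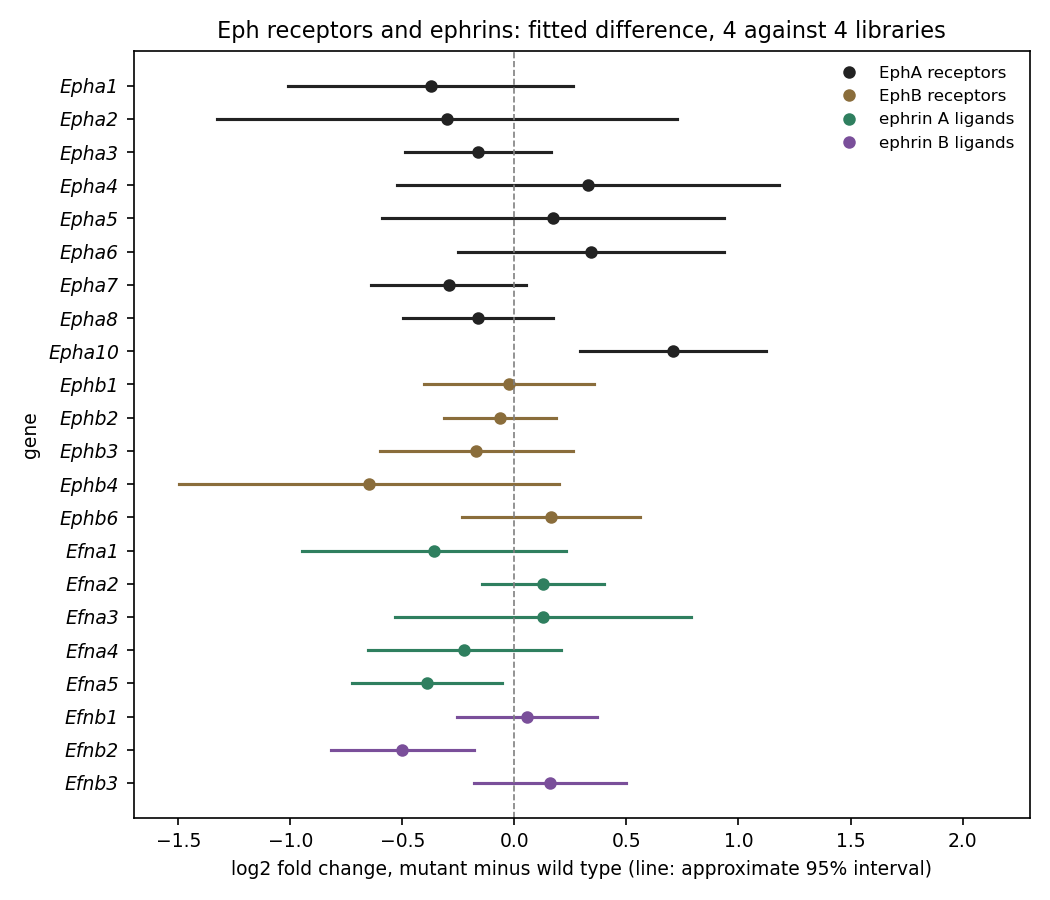
Fitted log2 fold change, mutant minus wild type, of 22 Eph receptor and ephrin genes, as a point with its approximate 95% interval not adjusted for the number of genes. The intervals of Epha10 (0.29 to 1.12), Efna5 (-0.73 to -0.06) and Efnb2 (-0.82 to -0.18) do not reach 0, and none of the 22 passed after adjustment over all genes. Of all tested genes, 12.5% had an unadjusted edgeR p below 0.05 and 0.359% passed after adjustment.

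RNA of the ligands of the EphA receptors was present in the same libraries. Because each library pools many cells, whether a cell held both receptor and ligand is not shown. Efna5, encoding ephrin-A5, had the highest level of the 5 ephrin A genes, at 13.8 RPKM in wild type and 10.5 RPKM in mutant libraries, followed by Efna2 at 7.55 and 8.26 RPKM and Efna4 at 4.13 and 3.54 RPKM. Efna3 and Efna1 lay at 1.38 and 1.13 RPKM in wild type. The summed ephrin A level was 25.3 to 31.9 RPKM in wild type and 23.1 to 25.7 RPKM in mutant libraries, and that of the EphA receptors 73.3 to 85.1 and 60.5 to 82.3 RPKM. None of the 5 ephrin A genes passed by edgeR, DESeq2 or limma-voom, against 0.359%, 2.77% and 0.354% of all genes. At an unadjusted edgeR p below 0.05 there was 1 ephrin A gene, where 12.5% of all tested genes reached that level. That gene, Efna5, was at 43.9, 48.1, 73.3 and 57.4 CPM across wild types 5 to 8 and at 38.4, 42.1, 47.3 and 41.9 CPM across mutants 1 to 4, with a fitted log2 difference of -0.39 (SE 0.154, adjusted p = 0.33 by edgeR). Mutant 3 lay within the wild type range, and without wild type 7, the highest library, the difference was -0.23. Efna1 had -0.36 (SE 0.27, adjusted p = 0.603 by edgeR).

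Among the 3 ephrin B genes, which reach the EphA class through EphA4, Efnb2 stood at 15.7 RPKM in wild type and 11.1 RPKM in mutant libraries, and Efnb3 at 14.0 and 15.6 RPKM. Efnb2 was at 64.5, 84.2, 54.1 and 68.0 CPM across wild types 5 to 8 and at 46.7, 57.5, 45.6 and 41.6 CPM across mutants 1 to 4. Only mutant 2 reached into the wild type range, above wild type 7. Its fitted log2 fold change was -0.50 (SE 0.147, adjusted p = 0.21 by edgeR), and that of Efnb3 0.16 (SE 0.155, adjusted p = 0.691 by edgeR). None of the 3 passed by edgeR, DESeq2 or limma-voom, against 0.359%, 2.77% and 0.354% of all genes. Efnb2 was the 1 ephrin B gene with an unadjusted edgeR p below 0.05, a level that 12.5% of all tested genes reached.

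The 5 EphB receptors were led by Ephb2 at 11.7 RPKM in wild type and 11.2 RPKM in mutant libraries, above Epha7 and below Epha8. None of them passed by edgeR, DESeq2 or limma-voom, against 0.359%, 2.77% and 0.354% of all genes. Their unadjusted edgeR p was below 0.05 in 0 of 5 cases, a level that 12.5% of all tested genes reached. The smallest p was that of Ephb4, a receptor of veins, which was at 9.82, 13.0, 5.55 and 6.58 CPM across wild types 5 to 8 and at 10.4, 3.70, 3.52 and 4.67 CPM across mutants 1 to 4 (log2 fold change -0.65, SE 0.383, adjusted p = 0.511 by edgeR). It was -1.13 without mutant 1 (adjusted p = 0.0557 by edgeR) and -0.395 without wild type 6. Ephb6, which like EphA10 lacks kinase activity, had a log2 fold change of 0.16 (SE 0.182, adjusted p = 0.73 by edgeR). The small values of Ephb6, Efna1 and Efnb3 also moved with 1 library left out, over 0.08 to 0.26, -0.47 to -0.20 and 0.02 to 0.25.

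Of 39 genes that act downstream of Eph receptors or ephrins, all were tested and 0 passed by edgeR, where 5 had an unadjusted p below 0.05, near the 12.5% of all tested genes. DESeq2 called 2 of the 39, against 2.77% of all genes to which it gave an adjusted p, and limma-voom 0, against 0.354%. The median log2 fold change of the list was -0.05. The 2 with the smallest p were Vav3 and Arhgef15, both guanine nucleotide exchange factors. Vav3 was at 21.8, 18.9, 35.2 and 24.0 CPM across wild types 5 to 8 and at 12.9, 13.4, 13.3 and 14.3 CPM across mutants 1 to 4. Every mutant library lay below every wild type library, where groups did not overlap in either direction for 6.17% of tested genes, and the log2 fold change was -0.89 (SE 0.178, adjusted p = 0.0646 by edgeR). It passed in 7 of 18 alternatives, among them the removal of mutant 1 (adjusted p = 0.0402) or of wild type 6 (0.037) and DESeq2 (0.000871).

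Arhgef15, an exchange factor described downstream of EphA4 in vascular smooth muscle and of EphB2 at synapses, was at 1.95, 3.35, 3.37 and 3.32 CPM across wild types 5 to 8 and at 3.24, 9.26, 6.22 and 9.56 CPM across mutants 1 to 4. Mutant 1 lay within the wild type range, and the other mutant libraries above it. The log2 fold change was 1.24 (SE 0.322, adjusted p = 0.149 by edgeR). It passed in 3 of 18 alternatives, among them DESeq2 (1.24, adjusted p = 0.00909) and the removal of mutant 1 (1.48, adjusted p = 0.01 by edgeR). The third was the removal of mutant 1 and wild types 5 and 6 together (1.32, adjusted p = 0.0458 by edgeR). Inppl1, a phosphatase named after its values were seen, passed without mutant 1, at -1.31 (adjusted p = 0.0205 by edgeR). Over all 8 libraries Inppl1 had -0.84 (adjusted p = 0.401 by edgeR).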

How the data were processed

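RNA was sequenced from 8 sorted cell samples, in libraries made from 2 ng of total RNA with 14 PCR cycles, per the labels' protocols. The authors deposited 1 table of raw counts per Ensembl gene with a gene length (width, in bases). Per the submitters' processing notes, bcl2fastq 1.8.4 and mm10 were used; which aligner, counter and annotation made the counts is not given in the sources used here. Columns show the group but not the title's replicate number. Symbols and positions came from GENCODE M21 on the same build, and 37607 identifiers matched a symbol.

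The members and gene lists were chosen with earlier results of these data known. Counts were tested in R 4.3.3 with edgeR 4.0.16 (filterByExpr, TMM, robust quasi-likelihood F test, no covariate), over 19494 genes, with p adjusted by Benjamini-Hochberg and a threshold of 0.05. SE is the absolute log2 fold change over the square root of F. Depth was 24789043 to 51118195 counts, and binomial intervals cover counting error only, since PCR copies are not independent molecules. Alternatives were 18 other fits, including DESeq2 1.42.0 and limma 3.58.1. Named genes are the 9 EphA genes, the targeted genes, from each other list those past the threshold or else the 2 with the smallest p, and the 3 genes nearest to Epha10 and to Epha3 in centred log2 CPM (prior count 2, mean of at least 1 CPM, no provisional names). EphB and ephrin genes are also given by level, and markers by summed level.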

Additional observations from a re-analysis of the deposited data

Results flagged for a closer look

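In 5 of 58 groups of 4 libraries examined, 1 library stood apart from the other 3 by Dixon's criterion, which chance gives in about 1 group in 20. Wild type 6 had 24.96 CPM of Epha5, with the other wild type libraries at 15.2 to 16.1 CPM. Wild type 7 had 6.86 CPM of Epha6, with the others at 4.18 to 4.48 CPM. Mutant 1 had 10.4 CPM of Ephb4, with the other mutant libraries at 3.52 to 4.67 CPM. Wild type 5 had 1.95 CPM of Arhgef15, with the others at 3.315 to 3.375 CPM. Wild type 6 had 46.65 CPM of Hoxb2, with the others at 37.4 to 38.9 CPM.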

How the results depend on the processing

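No paired analysis was possible because the columns of the table do not carry the replicate numbers of the sample titles. The sample labels do not state that equal replicate numbers mark a pair, and each library came from a different mother. The 9 EphA receptors gave 161 values under alternatives, of which 158 kept their direction and their side of the threshold. Epha2, which could not be tested with the filter of at least 1 CPM in 4 libraries, turned to 0.10 without wild type 6 (-0.51 to 0.10 with 1 library left out), Epha5 turned to -0.23 without mutant 2 (-0.23 to 0.38), and Epha10 passed with DESeq2 (0.71). Leaving out 1 library each gave 0 EphA receptors past the threshold in every case, and DESeq2 gave 1. Over all genes 70 passed, and this count was 26 to 544 with 1 library left out (544 on removal of mutant 1, 33 of mutant 2, 36 of mutant 3, 26 of mutant 4, 36 of wild type 5 and 32 of wild type 8). It was 214 with no low-count filter, 497 with DESeq2, 233 with limma-voom with quality weights and 171 with the 3 libraries mutant 1 and wild types 5 and 6 left out. Of the Eph signalling genes, 0 to 3 passed with 1 library left out (3 without mutant 1, 1 without wild type 6). The count was 1 with library size only, with no low-count filter and with quality weights. It was 2 with DESeq2 and without the 3 libraries together. The cause of these differences was not tested. EphB receptors and ephrins kept a count of 0 in all 18 alternatives. Levels in TPM left the order of the 9 EphA genes as it was.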
